A study of Homo sapiens with 48 samples.

Results

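DYSF, NOS3, LRRC49 and STOM were followed across a ribosome profiling series in SW480 cells, an established APC-mutant human colorectal cancer line. They are 4 of the 10836 genes listed in both of its tables, one of ribosome-protected fragments (RPFs) and one of total cytoplasmic RNA. These genes were selected on their measured change in log2 translational efficiency (TE, the log2 RPF value minus the log2 total RNA value of the same lysate) after depletion of eIF2Bδ by shEIF2B4. Every value of that contrast is therefore given below as a description, without a test. Change sizes are on the log2 scale of the deposited regularized log values, in which a difference of 1 is a doubling and which pull genes with few reads towards their mean.

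Each of 3 stable pools of SW480 cells, selected after lentiviral transduction and not derived from a single clone, carried a doxycycline-inducible short hairpin RNA. The hairpins were a non-targeting control (shCTRL), one against EIF2B1 (shEIF2B1, eIF2Bα) and one against EIF2B4 (shEIF2B4, eIF2Bδ). Cells received either DMSO (-DOX) or 1 µg/ml doxycycline (+DOX) for 5 days, so that all +DOX cells, controls included, shared the drug and an expressed hairpin. The 6 groups had 4 replicates each, grown in separate weeks, and each of the 24 lysates gave 1 RPF and 1 total RNA library. Only one hairpin per target was used, and a comparison of a targeting with a control hairpin cannot separate the knockdown from other effects of that hairpin.

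eIF2B is the exchange factor that reloads eIF2 with GTP so that it can bring the initiator tRNA to ribosomes. Phosphorylated eIF2 binds and inhibits it, which lowers initiation on most mRNAs while a few stress-response mRNAs such as those of ATF4 and ATF5 are translated better. The 4 genes have no shared textbook role in this pathway. DYSF encodes dysferlin, a ferlin of the plasma membrane known for calcium-dependent membrane repair in skeletal muscle. NOS3 encodes endothelial nitric oxide synthase, best known in endothelium. LRRC49 encodes a leucine-rich repeat subunit of the tubulin polyglutamylase complex, which adds glutamate chains to tubulin tails. STOM encodes stomatin, an integral membrane protein of the SPFH (stomatin, prohibitin, flotillin, HflK/C) family first described in red cells.

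In GENCODE v29 on GRCh38, DYSF (ENSG00000135636.15) lies on the plus strand at chr2:71453722-71686768, and its counted transcript has 56 exons. NOS3 (ENSG00000164867.11) is on the plus strand at chr7:150990995-151014588 with 27 exons, and its end overlaps the oppositely oriented ATG9B, which is in neither table. LRRC49 (ENSG00000137821.12), on the plus strand at chr15:70853239-71053657 with 16 exons in its counted transcript, overlaps LARP6 and THAP10 on the minus strand. Both of these are in both tables. STOM (ENSG00000148175.13) is on the minus strand at chr9:121338988-121370304 with 7 exons and overlaps an antisense transcript, AL359644.1, that is in neither table. RPFs were counted on coding sequences, and whether the counting used strand is not given in the sources used here. Reads of a gene and of an antisense partner may therefore not have been told apart where their transcripts overlap. The counted LRRC49 transcript starts at 70892626, past the end of LARP6 (70854159), and only its start lies within THAP10, which ends at 70892785.

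The coding sequences of the members that rose and of those that fell differed in the last base of their codons, which the stretches of codons 101 to 140 show. They come from the v29 transcript sequences and were cut at the same codons in each gene so that no stretch was chosen for its content. Capitals mark a G or C in the third position of a codon.
DYSF: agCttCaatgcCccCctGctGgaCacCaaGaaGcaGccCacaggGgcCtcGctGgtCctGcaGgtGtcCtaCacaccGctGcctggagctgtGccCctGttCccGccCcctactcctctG
NOS3: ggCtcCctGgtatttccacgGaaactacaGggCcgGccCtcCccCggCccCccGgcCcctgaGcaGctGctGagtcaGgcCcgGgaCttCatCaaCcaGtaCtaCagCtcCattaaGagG
LRRC49: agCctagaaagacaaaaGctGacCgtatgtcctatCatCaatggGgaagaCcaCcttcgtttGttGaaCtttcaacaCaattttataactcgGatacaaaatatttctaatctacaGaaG
STOM: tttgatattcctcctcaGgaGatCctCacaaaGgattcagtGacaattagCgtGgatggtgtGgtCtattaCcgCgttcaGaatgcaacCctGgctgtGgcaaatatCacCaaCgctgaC
Of the 40 codons shown, 31 end in G or C in DYSF, 32 in NOS3, 16 in LRRC49 and 20 in STOM. Over the whole coding sequence, stop codon included, G or C ended 1556 of 2120 codons in DYSF (73.4%) and 979 of 1204 in NOS3 (81.3%). The share was 265 of 692 in LRRC49 (38.3%) and 147 of 289 in STOM (50.9%), against a median of 59.1% over 10506 genes. LRRC49 and STOM were thus on the low side of the median, with 14.6% and 37.1% of genes below them. DYSF and NOS3 were on the high side, with 75.9% and 90.8% below. Over all genes this share went with the response used for the pick (Pearson's r of 0.71), so genes picked from its ends tend to divide in this way.

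The 5′ leaders did not divide the genes in that way. The leader of NOS3 (357 bases) and that of LRRC49 (269 bases) each held 4 upstream ATG triplets, a number that 90.0% of genes did not reach, while those of DYSF (141 bases) and STOM (18 bases) held none, as in 52.4% of genes. Among the RefSeq promoter windows (GRCh38.p14, from 250 bases before to 50 after a start), the C/EBP-ATF response element TGATGNAA, searched on both strands, occurred in 1 of the 6 windows of these genes and in 3.62% of all 35116 windows. The match lay in LRRC49, 132 bases before a RefSeq start that is not the start of the counted transcript. The bases around it, chr15:70853235-70853264 on the plus strand, are shown with the match in capitals because it was the only match in the 6 windows. The windows of DYSF and NOS3, whose total RNA was also higher with both knockdowns, held none, nor did that of STOM. The DYSF window (chr2:71453311-71453610) does not contain the start of the counted DYSF transcript (71466702). Nor do the NOS3 windows, which begin at 150993532 or later, contain the start of the counted NOS3 transcript (150990995). The sequence at those starts was not searched. Starts and leaders given here are those of GENCODE v29, in which the transcript versions of DYSF, NOS3 and STOM are not the ones counted.
LRRC49 promoter: aggcagcaagaTGATGCAAacataaaggtc
The motif was chosen after the sequences had been seen, and a match is a description of these letters only.

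The libraries were first compared with their labels. Total RNA of EIF2B1 fell by 0.67 ± 0.15 (SE) with shEIF2B1 relative to shCTRL, and that of EIF2B4 fell by 0.49 ± 0.14 with shEIF2B4 (limma adjusted p = 0.026 and 0.063). RPFs of EIF2B1 fell by 0.53 ± 0.13 (limma adjusted p = 0.011), whereas those of EIF2B4 changed by -0.48 ± 0.19 and did not pass the test (limma adjusted p = 0.24). No 2 libraries were identical. Library medians lay between 6.84 and 7.12 for RPFs and between 7.85 and 7.92 for total RNA. Sequencing depth cannot be read from regularized log values and is unknown here. After condition and week means were removed, the root mean square residual of the 24 RPF libraries had a median of 0.131, and the highest values were those of uninduced shEIF2B4 replicate 1 (0.266) and replicate 3 (0.219). Because of this, responses to shEIF2B4 are also given without replicate 1. In log2 TE the residual of replicate 3 was the higher (0.262 against 0.249), and log2 TE responses are given without it too. Colorectal epithelial markers were present (8 of 9 in each table, VIL1 being absent from both), while of the endothelial markers only ESAM was listed (1 of 8, mean 3.78 in total RNA). Skeletal muscle markers were DES in total RNA and DES and ACTA1 in RPFs (of 8), and no erythroid marker had RPFs, with SLC4A1 alone of 6 in total RNA.

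DYSF was close to the bottom of the total RNA table and was the gene with the highest log2 TE response to shEIF2B4. Its total RNA averaged 3.72 over the 24 libraries, with 2.52% of the 11947 listed genes lower, and its RPFs averaged 4.12, with 7.03% of 11145 genes lower; these ranks are not corrected for transcript length. In these bulk lysates a higher level in every cell and a high level in some of the cells cannot be told apart. DYSF RPFs in the uninduced shEIF2B4 line were 3.84, 3.25, 2.97 and 3.22 in replicates 1 to 4. With DOX they were 5.58, 5.87, 5.37 and 5.36. The induced and uninduced libraries did not overlap, and replicate 1 was the highest of the uninduced ones. Total RNA of DYSF was raised less, from 3.57, 3.57, 3.43 and 3.52 to 4.26, 4.44, 4.15 and 4.23, again with no overlap. In shCTRL the same transcript moved little, with RPFs of 3.68 ± 0.14 (SD, n = 4) without and 3.87 ± 0.27 with DOX, and total RNA of 3.45 ± 0.03 and 3.51 ± 0.10. Relative to shCTRL, DYSF responded to shEIF2B4 by 2.03 ± 0.21 (SE) in RPFs, 0.69 ± 0.08 in total RNA and 1.34 ± 0.18 in log2 TE. Without replicate 1 these were 2.21, 0.69 and 1.52, while without replicate 3 the log2 TE response was 1.14.

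NOS3 followed the same course from an equally low start. Total RNA averaged 3.71 (2.44% of genes lower) and RPFs averaged 4.16 (7.36% lower). RPFs of NOS3 in the shEIF2B4 line were 4.21, 3.61, 3.25 and 3.37 without DOX and 5.78, 5.97, 6.55 and 5.68 with it, the highest group of the 6 with no overlap with the next. Its total RNA in this line was already above that of the other uninduced lines, at 3.92, 3.99, 3.77 and 3.87, where shCTRL ranged from 3.18 to 3.31 and shEIF2B1 from 3.21 to 3.28. With DOX it reached 4.54, 4.73, 4.97 and 4.75. NOS3 also moved in shCTRL, where RPFs were 3.35, 3.20, 3.40 and 3.16 without DOX and 3.86, 3.91, 4.17 and 3.17 with it, higher in 4 of 4 weeks by a mean of 0.50. After subtraction of that change, the response to shEIF2B4 was 1.89 ± 0.27 (SE) in RPFs, 0.76 ± 0.11 in total RNA and 1.13 ± 0.21 in log2 TE. Leaving out replicate 1 gave 2.16, 0.83 and 1.33, while leaving out replicate 3 gave 1.01 in log2 TE.

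LRRC49 differed from both in that its log2 TE was lower with DOX while its RPFs were not. RPFs in the shEIF2B4 line were 4.19, 4.61, 4.46 and 4.51 without DOX and 4.35, 4.29, 4.39 and 4.71 with it, 2 weeks being higher and 2 lower. LRRC49 total RNA in the same lysates was 6.23, 6.25, 6.11 and 6.37 without DOX and 6.96, 6.88, 6.92 and 7.02 with it, without overlap. The lower log2 TE of LRRC49 was thus a higher total RNA that RPFs did not share. In shCTRL, total RNA was 6.40 ± 0.15 (SD, n = 4) without and 6.39 ± 0.17 with DOX, and RPFs were 4.24 ± 0.19 and 4.47 ± 0.20. The response to shEIF2B4 relative to shCTRL was -0.25 ± 0.16 (SE) in RPFs, 0.71 ± 0.12 in total RNA and -0.96 ± 0.17 in log2 TE. With replicate 1 left out it was -0.23, 0.66 and -0.89, and with replicate 3 left out it was -0.95 in log2 TE.

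STOM combined small movements of both RNAs in opposite directions. RPFs in the shEIF2B4 line were 6.19, 5.94, 5.95 and 6.27 without DOX and 5.84, 5.91, 5.91 and 6.04 with it, lower in 4 of 4 weeks by a mean of 0.16, with ranges that overlapped. STOM total RNA was higher in the same 4 weeks, going from 6.47, 6.36, 6.20 and 6.34 to 6.81, 6.62, 6.65 and 6.57, without overlap. In shCTRL, by contrast, its RPFs were 5.55, 5.73, 5.50 and 5.69 without DOX and 5.79, 6.14, 6.05 and 5.87 with it, 0.35 higher and without overlap, and subtracting this change enlarged the difference. Relative to shCTRL the response to shEIF2B4 was -0.51 ± 0.16 (SE) in RPFs, 0.26 ± 0.10 in total RNA and -0.77 ± 0.15 in log2 TE. In the shEIF2B4 line alone, log2 TE changed by -0.48 ± 0.13 and RPFs by -0.16 ± 0.12. Without replicate 1 the shCTRL-corrected values were -0.48, 0.22 and -0.70, and without replicate 3 that of log2 TE was -0.71.

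**Figure D1:**
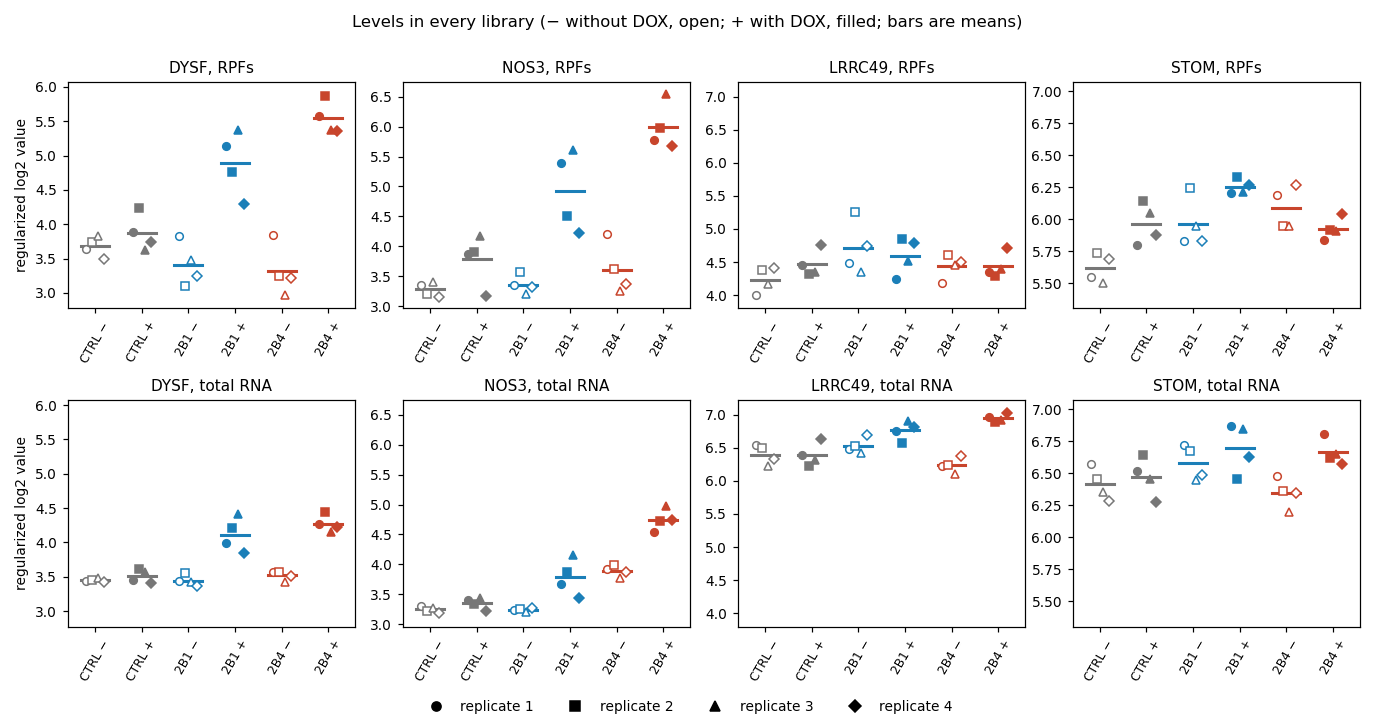
Regularized log2 values (vertical axis, the same range for the RPF and total RNA panels of a gene) of DYSF, NOS3, LRRC49 and STOM in every library. Columns are the shCTRL (CTRL), shEIF2B1 (2B1) and shEIF2B4 (2B4) lines without (-, open) and with DOX (+, filled), symbols are replicates and bars are means of 4. RPFs of DYSF and NOS3 are highest in the induced shEIF2B4 line (means 5.55 and 5.99), while LRRC49 RPFs stay between 4.00 and 5.26 in all 24 libraries as its total RNA reaches 7.02 in induced shEIF2B4 replicate 4.

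Total RNA thus moved in all 4 genes in the shEIF2B4 line, RPFs did not move in LRRC49, and the label of translation extremes covers 2 patterns. RPFs and total RNA were both higher in DYSF and NOS3, RPFs by more, while in LRRC49 and STOM total RNA was higher and RPFs were not. By size of the log2 TE response, DYSF was number 1 and NOS3 number 3 from the top of 10836 genes, LRRC49 was number 6 from the bottom, and STOM was number 45. Beside DYSF, the highest responses were those of ATF5 (1.17), NOS3, PRPH (1.11), a neuronal intermediate filament protein, and MLXIPL (1.09), the glucose-responsive transcription factor ChREBP. The lowest were those of ANKHD1-EIF4EBP3 (-1.09) and HSPE1-MOB4 (-1.05), both read-through loci that share sequence with their parent genes, UFM1 (-0.98), a ubiquitin-like modifier, CASD1 (-0.96), a sialic acid acetyltransferase, and POLR2K (-0.96), an RNA polymerase subunit. In that response limma called 10 of 10836 genes, a background of 0.0923%. The 4 genes were picked on this response, so nothing is read from their own p-values in it. With replicate 1 left out it called 1417, and without replicate 2, 3 or 4 limma called 0, while the unadjusted p was under 0.05 for 1195, 819 and 1079 genes.

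**Figure D2:**
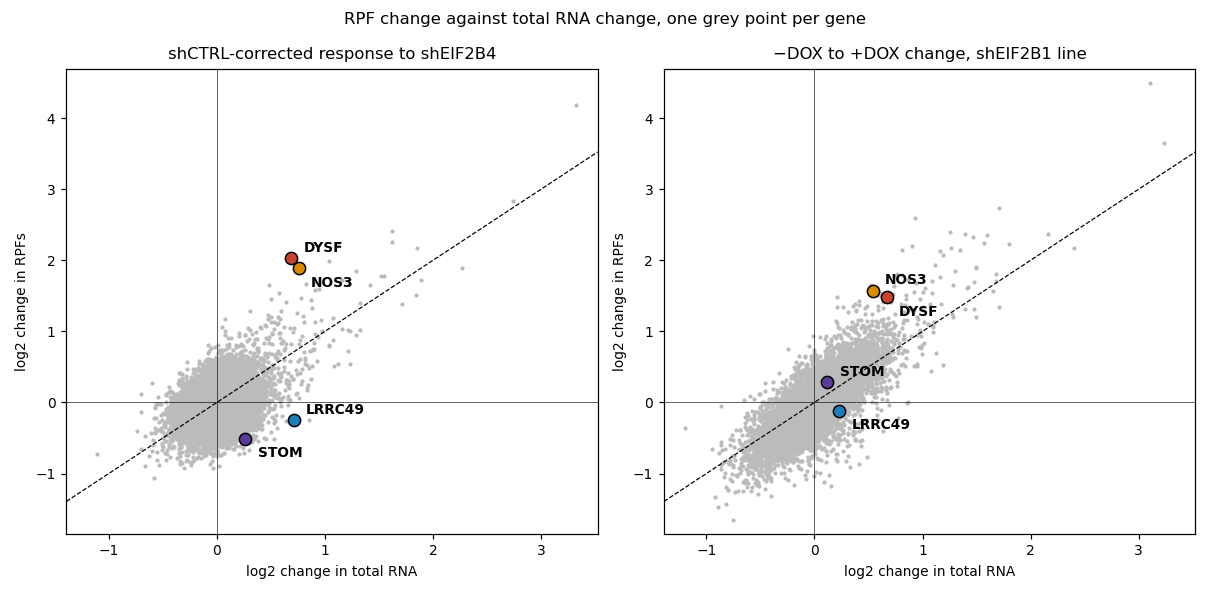
Change in RPFs (vertical axis, log2) against change in total RNA (horizontal axis, log2) of 10836 genes, as the shCTRL-corrected response to shEIF2B4 (left) and the -DOX to +DOX change in the shEIF2B1 line (right). The dashed line marks equal change, so distance above or below it is the change in log2 TE. DYSF (2.03, 0.69 on the left) and NOS3 lie above it in both panels, LRRC49 below it in both, and STOM below it on the left and slightly above it on the right.

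The low abundance of DYSF and NOS3 bears on how their log2 TE is read. Among the 542 genes in the lowest 5% by mean total RNA, the median absolute response to shEIF2B4 was 0.079 in total RNA, against 0.118 in the other 10294 genes, whereas in RPFs it was 0.198 against 0.178. Total RNA changes were thus smaller at this level and RPF changes were not, and 4 of the 6 genes with a log2 TE response above 1 were in this lowest 5%. The authors' transformation shrinks low counts towards the gene's mean in each assay separately. Its part in the log2 TE rise of DYSF and NOS3 was not tested, since counts were not used here. LRRC49 (total RNA 6.54, 27.7% of genes lower) and STOM (6.53, 27.4% lower) are outside that range of total RNA. In RPFs, however, LRRC49 was also low, at a mean of 4.48 with 10.4% of genes lower. STOM RPFs averaged 5.97, with 30.2% lower. The part of this shrinkage in the flat RPFs of LRRC49 was not tested either.

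**Figure D3:**
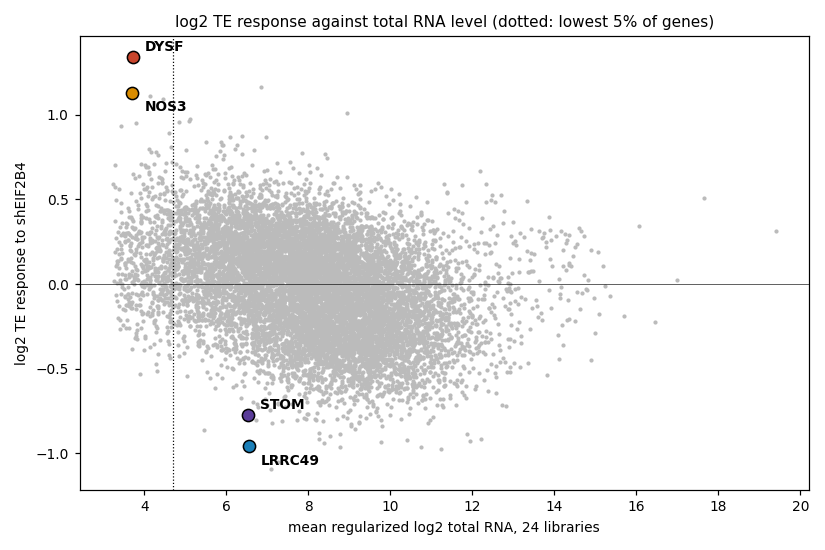
shCTRL-corrected log2 TE response to shEIF2B4 (vertical axis) against mean regularized log2 total RNA over 24 libraries (horizontal axis), 1 grey point per gene for 10836 genes. The dotted line bounds the lowest 5% of genes, in which DYSF and NOS3 lie (means 3.72 and 3.71), with LRRC49 and STOM at 6.54 and 6.53.

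The shEIF2B1 line played no part in choosing these genes, and its own change from -DOX to +DOX could be tested across all genes with week as a block. It contains the effect of DOX as well as that of the knockdown. On induction of shEIF2B1, 49.4% of genes were called in RPFs, 34.4% in total RNA and 17.1% in log2 TE at a limma adjusted p under 0.1, so that a call alone is common, above all in RPFs, and the sizes and ranks carry more than the calls. Of the 4 genes, 3 were called in RPFs, 3 in total RNA and 3 in log2 TE. Without the week block, the log2 TE calls were lost (limma adjusted p = 0.28 for DYSF, 0.16 for NOS3 and 0.82 for LRRC49), as was the RPF call of STOM (0.22), while the RPF and total RNA calls of DYSF and NOS3 held.

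DYSF rose in all these measures. Its RPFs in the shEIF2B1 line were 3.83, 3.10, 3.48 and 3.24 without DOX and 5.14, 4.76, 5.37 and 4.29 with it, and its total RNA was 3.44, 3.55, 3.43 and 3.36 without and 3.99, 4.22, 4.41 and 3.85 with it. No induced library overlapped an uninduced one in either. The changes were 1.48 ± 0.13 (SE) in RPFs, 0.67 ± 0.08 in total RNA and 0.81 ± 0.11 in log2 TE, with limma adjusted p of 2.4e-09, 6.7e-05 and 0.00074. By size they ranked 56 of 11145, 195 of 11947 and 48 of 10836 from the top. All 4 weeks rose in each measure, and log2 TE rose by 0.75, 1.00, 0.91 and 0.56.

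NOS3 rose as well, with more spread between weeks. RPFs were 3.35, 3.56, 3.21 and 3.32 without DOX and 5.39, 4.50, 5.61 and 4.23 with it, so that replicates 1 and 3 gained 2.05 and 2.41 and replicates 2 and 4 gained 0.93 and 0.91. Total RNA of NOS3 went from 3.24, 3.25, 3.21 and 3.28 to 3.67, 3.88, 4.15 and 3.43. The changes of 1.57 ± 0.17 (SE) in RPFs, 0.54 ± 0.10 in total RNA and 1.04 ± 0.17 in log2 TE had limma adjusted p of 9.5e-08, 0.0013 and 0.0032. They ranked 43, 382 and 12 from the top. The weekly changes of NOS3 had an SD of 0.77 in RPFs and 0.61 in log2 TE. The SEs, from variances that limma pulls towards those of other genes, are narrower than this spread alone would give. In shCTRL the log2 TE of NOS3 rose by 0.40 on average, 3 of 4 weeks being higher, and after subtraction of that change the shEIF2B1 response was 0.64 ± 0.22, with week 2 at -0.28.

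For LRRC49 the pattern of the shEIF2B4 line recurred at a smaller size. RPFs were 4.49, 5.26, 4.35 and 4.75 without DOX and 4.24, 4.85, 4.51 and 4.78 with it, a change of -0.11 ± 0.13 (SE) that did not pass the test (limma adjusted p = 0.49). Total RNA rose from 6.49, 6.53, 6.42 and 6.69 to 6.76, 6.58, 6.90 and 6.82, by 0.23 ± 0.09 and in 4 of 4 weeks, with ranges that overlapped (limma adjusted p = 0.086). The log2 TE of LRRC49 fell by 0.35 ± 0.12, in 4 of 4 weeks (limma adjusted p = 0.077). Neither call is firm. Leaving out any one replicate raised the adjusted p of log2 TE to between 0.10 and 0.25, and removal of the trend with coding GC content reduced the change to -0.15 (limma adjusted p = 0.51). That of total RNA was lost without replicate 1, 3 or 4.

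STOM was called in RPFs only, and the sign of its log2 TE change depended on the shCTRL correction. Its RPFs in the shEIF2B1 line rose from 5.83, 6.24, 5.95 and 5.83 to 6.20, 6.33, 6.21 and 6.27, by 0.29 ± 0.12 (SE) and in 4 of 4 weeks (limma adjusted p = 0.051). Its total RNA went from 6.72, 6.67, 6.44 and 6.49 to 6.87, 6.46, 6.84 and 6.63, and the change of 0.12 ± 0.10 did not pass the test (limma adjusted p = 0.41). Nor did that of log2 TE, which was 0.17 ± 0.11, 3 of 4 weeks being higher (limma adjusted p = 0.35). The RPF rise in shCTRL was of similar size (0.35), so that the shCTRL-corrected response to shEIF2B1 was -0.06 ± 0.14 in RPFs and -0.12 ± 0.15 in log2 TE, the same sign as with shEIF2B4. The RPF call was lost without replicate 1 or 4.

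**Figure D4:**
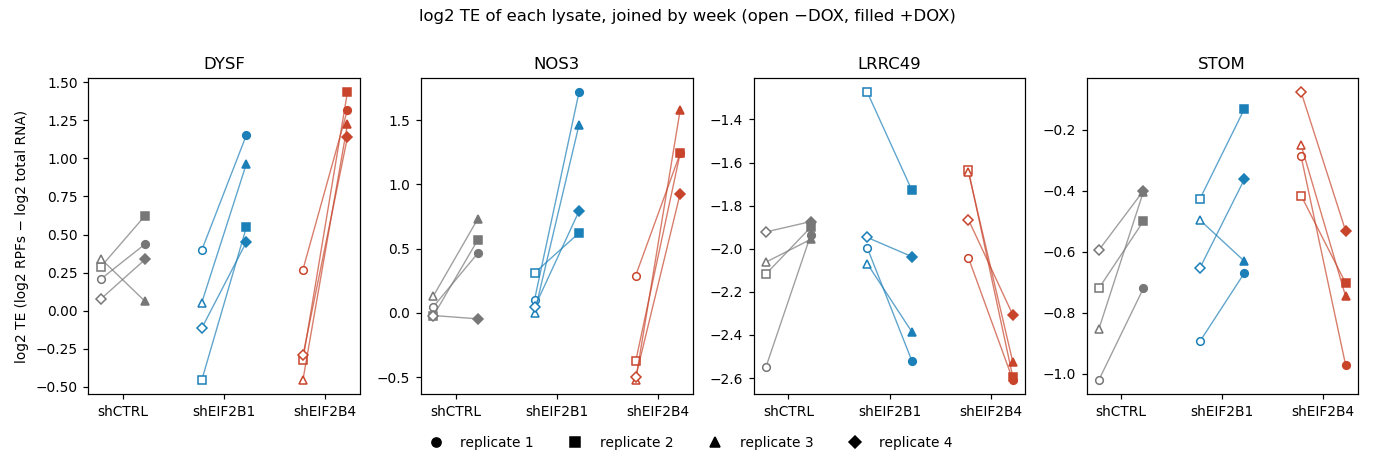
log2 TE (vertical axis, log2 RPFs minus log2 total RNA, from tables normalized separately) of DYSF, NOS3, LRRC49 and STOM in the 24 lysates. Lines join the -DOX (open) and +DOX (filled) lysate of the same line and week. DYSF and NOS3 rise in 4 of 4 weeks in both knockdown lines, LRRC49 falls in 4 of 4 in both, and STOM falls in 4 of 4 with shEIF2B4 but rises in 3 of 4 with shEIF2B1.

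Across the 6 groups, the order of mean log2 TE was the same for DYSF and NOS3 at its upper end, with induced shEIF2B4 (1.28 and 1.25) above induced shEIF2B1 (0.78 and 1.15) and induced shCTRL (0.37 and 0.43). At the other end stood uninduced shEIF2B4 (-0.20 and -0.28). Every pair of neighbours in these orders overlapped in range, so no single step of the order is separated from the next. In RPFs, on the other hand, induced shEIF2B1 (DYSF 4.89, NOS3 4.93) did not overlap induced shCTRL (3.87 and 3.78), and for NOS3 induced shEIF2B4 did not overlap induced shEIF2B1 either. LRRC49 was lowest in log2 TE in induced shEIF2B4 (-2.51) and highest in uninduced shEIF2B4 (-1.80). The order for STOM ran from -0.26 in uninduced shEIF2B4 to -0.80 in uninduced shCTRL, with all neighbours overlapping. By mean, uninduced shEIF2B4 thus had the highest log2 TE of the 6 groups for LRRC49 and STOM and the lowest for DYSF and NOS3. These values are subtracted in the response on which the genes were picked, so the pick itself favours such extremes. Replicates 1 and 3 of this group also had the highest log2 TE residuals (0.249 and 0.262). RPFs and total RNA were normalized in separate tables, so the sign of a log2 TE level carries no meaning of its own.

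The genes whose log2 TE was most like each of these over the 24 lysates, with week means removed, are given by Pearson's r as a description. The points share libraries, and 16 of the lysates are those of the response on which the 4 genes were picked, so that r with other genes of a large response was in part set by that choice. For DYSF they were MLXIPL (0.91), ATF5 (0.90) and IRF9 (0.87), and for NOS3 they were ATF5 (0.94), PRPH (0.94) and MLXIPL (0.92). LRRC49 was most like R3HDM1 (0.88), RBM18 (0.83) and BBS7 (0.83). STOM was less tightly matched, by NAPB (0.77), SLC35A3 (0.74) and ABHD13 (0.73). Without removal of week means, both settings named 2 of the 3 genes for DYSF and for NOS3 but 1 of 3 for LRRC49 and for STOM.

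GC content at the third position of codons and the log2 TE response moved together over all genes. Among 10479 genes with a complete coding sequence, Pearson's r across genes, which share libraries and are not independent replicates, was 0.71 for the shCTRL-corrected response to shEIF2B4 and 0.42 for the change on induction of shEIF2B1. In shCTRL it was -0.42, and the corrected response contains that change with its sign turned. From the 2620 genes of lowest to the 2620 of highest GC content, the median response to shEIF2B4 went from -0.31 to 0.23, and on induction of shEIF2B1 it went from -0.15 to 0.10. When each library's trend with coding GC content was removed, the log2 TE response to shEIF2B4 became 1.21 in DYSF, 0.88 in NOS3, -0.55 in LRRC49 and -0.67 in STOM.

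**Figure D5:**
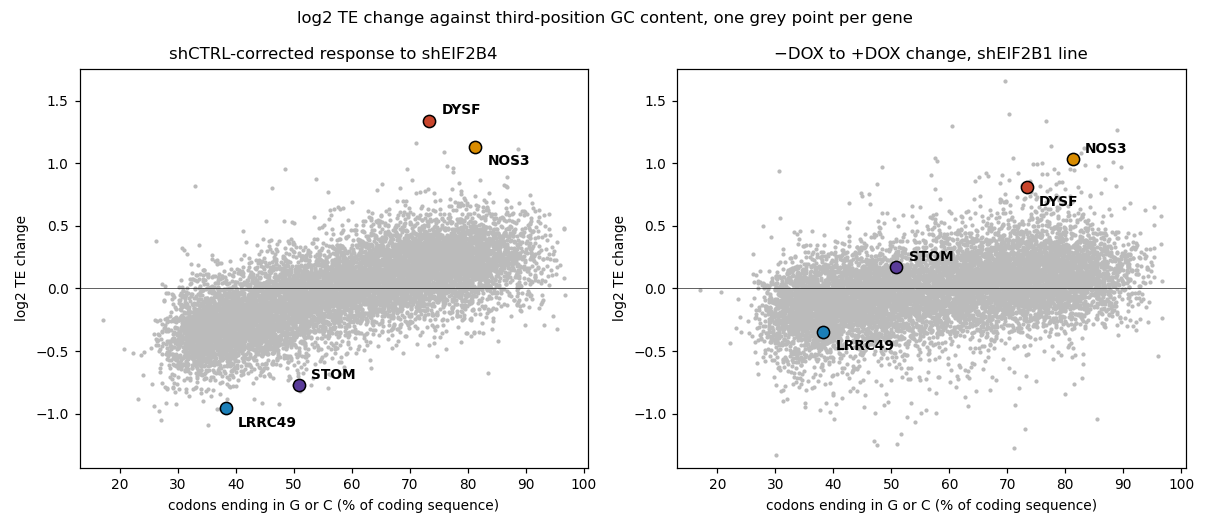
Change in log2 TE (vertical axis) against the percentage of codons that end in G or C (horizontal axis) for 10479 genes, as the shCTRL-corrected response to shEIF2B4 (left) and the change on induction of shEIF2B1 (right). The left panel shows the response on which the 4 genes were picked. DYSF (73.4%) and NOS3 (81.3%) lie above the cloud in it, LRRC49 (38.3%) and STOM (50.9%) at its lower edge, and STOM lies within the cloud on the right.

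Genes known to act with these 4 were counted from fixed lists, the 4 themselves left out, in the shCTRL-corrected responses. Those to shEIF2B1 and shEIF2B4 share the shCTRL libraries. The background of calls was 27.3% in RPFs and 3.47% in total RNA for shEIF2B1, and 2.75% in RPFs and 5.4% in total RNA for shEIF2B4. These counts of calls depend on the fit and on single weeks. Without the replicate block, limma called 50 genes in place of 3038 in RPFs with shEIF2B1, 36 in place of 307 in RPFs with shEIF2B4, and 191 in place of 414 and 349 in place of 645 in total RNA. Leaving out 1 replicate, RPF calls for shEIF2B1 lay between 1529 and 2714, and those for shEIF2B4 between 43 and 1615, the highest without replicate 1. Total RNA calls lay between 111 and 645 for the former and between 217 and 496 for the latter. With the GC trend removed, RPF calls with shEIF2B1 were 890. The list counts were recomputed for shEIF2B4 without replicate 1 only. With each library centred on its median, the share of higher calls went from 43.9% to 55.7% in RPFs with shEIF2B1 and from 70.1% to 59.4% in total RNA with shEIF2B4. No list member was called by limma in the log2 TE response to shEIF2B4, where 3 of the nitric oxide list and 2 tubulin tail enzymes had an unadjusted p under 0.05.

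Of the other ferlins only MYOF, the myoferlin of plasma membrane fusion, was in the tables (1 of 4). Its response to shEIF2B4 was -0.23 ± 0.18 (SE) in RPFs and -0.10 ± 0.11 in total RNA, neither called by limma. On induction of shEIF2B1, in which DYSF RPFs rose, MYOF RPFs changed by -0.01 ± 0.11 and its total RNA rose by 0.29 ± 0.10 (limma adjusted p = 0.96 and 0.040). Of 20 membrane repair genes and annexins with RPFs, 1, the caveolin CAV1, fell with shEIF2B4, and the median of the 20 was -0.03 against -0.02 over all genes. In total RNA the same gene fell among 19. Without replicate 1, 2 were called lower in RPFs with shEIF2B4, CAV1 and AHNAK. AHNAK was then at -0.60 ± 0.21 (limma adjusted p = 0.077), and with all replicates at -0.63 ± 0.24 (limma adjusted p = 0.20). With shEIF2B1, 1 rose in RPFs (S100A11, 0.58 ± 0.16) and 4 fell, among them the phospholipid-binding annexins ANXA5 (-0.62 ± 0.15) and ANXA2 (-0.39 ± 0.15). In total RNA limma called 0 of 19 with shEIF2B1, 1 having an unadjusted p under 0.05.

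Around NOS3, ASS1 rose and DDAH1 fell in both RPFs and total RNA with both hairpins. CAV1 fell in RPFs with both. ASS1 and ASL make arginine, the substrate of nitric oxide synthases, from citrulline, SLC7A1 imports it, and ARG2 consumes it. ASS1 RPFs rose by 0.97 ± 0.14 (SE) with shEIF2B4 and by 1.05 ± 0.12 with shEIF2B1, and its total RNA by 0.91 ± 0.11 and 1.09 ± 0.12 (limma adjusted p between 1.7e-05 and 0.00074). SLC7A1 RPFs rose by 0.52 ± 0.14 with shEIF2B4 and by 0.53 ± 0.11 with shEIF2B1, and ARG2 total RNA rose by 0.73 ± 0.09 and 0.62 ± 0.12. ASL RPFs rose with shEIF2B1 (0.60 ± 0.12), while their response to shEIF2B4 (0.38 ± 0.17) was not called (limma adjusted p = 0.29). The RPFs of CAV1, a caveolar protein that binds and inhibits NOS3, fell by 0.67 ± 0.14 and 0.46 ± 0.15, and those of DDAH1, which degrades an endogenous inhibitor of nitric oxide synthases, by 0.49 ± 0.14 and 0.30 ± 0.12. In all, 2 of 20 list members rose and 2 fell in RPFs with shEIF2B4, with a median of -0.05, and 4 rose and 7 fell with shEIF2B1, with a median of -0.03. The 7 include HSP90AA1 (-1.26), which encodes a chaperone that binds the synthase. In total RNA, 2 of 21 rose and 2 fell with shEIF2B4, and 2 rose and 1 fell with shEIF2B1, with medians of -0.07 and -0.05. Without replicate 1, 4 rose and 4 fell in RPFs with shEIF2B4. In total RNA 3 rose and 1, CAV1, fell, so that DDAH1 was no longer called there. NOS2, the inducible synthase and the only other one listed, responded to shEIF2B4 by -0.29 ± 0.19 in RPFs and -0.07 ± 0.08 in total RNA, which limma did not call.

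Few partners of LRRC49 in the tubulin polyglutamylase complex were listed, 3 of 5 in each table. With shEIF2B4 limma called none of the 3 in RPFs or total RNA (1 and 0 at an unadjusted p under 0.05), and with shEIF2B1 it called TPGS1, which rose in RPFs (0.40 ± 0.16 SE). Without replicate 1, TPGS1 RPFs were called with shEIF2B4 too. Of 15 other tubulin tail enzymes with total RNA, 1 rose with each hairpin, the deglutamylase AGTPBP1 (0.54 ± 0.12 with shEIF2B4 and 0.53 ± 0.11 with shEIF2B1), the medians of the 15 being -0.01 and 0.02. In RPFs limma called 0 of 9 with either hairpin (0 with shEIF2B4 and 1 with shEIF2B1 at an unadjusted p under 0.05).

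In the stomatin and SPFH family, limma called 0 of 8 in RPFs with shEIF2B4, also at an unadjusted p under 0.05, and the median was 0.04. Without replicate 1, however, ERLIN1 was called lower in RPFs, and 2 of the 8 had an unadjusted p under 0.05. STOML2, a mitochondrial relative of STOM, responded by 0.15 ± 0.14 (SE) in RPFs and -0.15 ± 0.10 in total RNA. PHB, a prohibitin, fell in total RNA with shEIF2B4 (-0.40 ± 0.12), and FLOT1, a flotillin, rose in RPFs with shEIF2B1 (0.31 ± 0.12). Among stomatin partners, the glucose transporter SLC2A1 fell in total RNA with shEIF2B4 (-0.43 ± 0.10), 1 of 3 listed. Without replicate 1, 2 of these 3 were called lower, SLC2A1 and ASIC1.

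The genes beside and over these loci were checked because the counting may not separate strands. Of the genes over LRRC49, only THAP10 reaches the counted transcript, at its start and ahead of the coding sequence on which RPFs were counted. All values are shCTRL-corrected responses. THAP10 and LARP6, which overlap LRRC49, responded to shEIF2B4 by 0.38 ± 0.13 (SE) and 0.42 ± 0.13 in total RNA, LARP6 being called (limma adjusted p = 0.098) and THAP10 not (limma adjusted p = 0.14). Their RPF responses of 0.51 ± 0.17 and 0.53 ± 0.21 were not called (limma adjusted p = 0.17 and 0.22). With shEIF2B1, LARP6 rose in total RNA by 0.62 ± 0.18 (limma adjusted p = 0.082), while THAP10 responded by -0.05 ± 0.13 (limma adjusted p = 0.91). THSD4, a neighbour of LRRC49 that does not overlap it, rose in total RNA with shEIF2B4 by 0.43 ± 0.11 (limma adjusted p = 0.034), as much as the overlapping genes by estimate. UACA, on the other side, responded by 0.09 ± 0.12 (limma adjusted p = 0.74). The part of shared reads in the total RNA of LRRC49 was not tested.

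KCNH2, which encodes a potassium channel and lies next to NOS3 without overlap, rose by 1.18 ± 0.23 (SE) in RPFs and 0.48 ± 0.09 in total RNA with shEIF2B4 (limma adjusted p = 0.011 and 0.0040), and by 0.91 ± 0.18 and 0.45 ± 0.10 with shEIF2B1 (limma adjusted p = 0.0034 and 0.025). KCNH2 too was of low abundance, with group means from 3.76 to 4.48 in total RNA and from 3.16 to 4.49 in RPFs. It thus lay in the lowest 5% of genes by total RNA, as NOS3 did. ABCB8, on the other side of NOS3, rose in RPFs with shEIF2B1 by 0.40 ± 0.13 (limma adjusted p = 0.039), and its response to shEIF2B4 of 0.18 ± 0.19 was not called (limma adjusted p = 0.68). ZNF638, beside DYSF, responded to shEIF2B4 by -0.28 ± 0.16 in RPFs and 0.12 ± 0.10 in total RNA, neither called by limma. GSN, which encodes the actin-severing gelsolin beside STOM, responded alike to both hairpins in RPFs by estimate, by 0.43 ± 0.14 with shEIF2B1 (limma adjusted p = 0.046) and by 0.38 ± 0.16 with shEIF2B4 (limma adjusted p = 0.24). DAB2IP, on the other side of STOM, was not called with either.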

How the data were processed

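RPF and total cytoplasmic RNA libraries of 24 SW480 lysates were analysed (6 groups, 4 replicates). The authors trimmed reads with cutadapt 1.18, aligned them to GENCODE v38 transcripts with bowtie2, processed alignments with SAMtools 1.9, chose the most expressed transcript of each gene with RSEM and counted RPFs on coding sequences. The deposited values are regularized log2 values made by the authors with DESeq2 in R 4.3.1, separately for each assay. Depth cannot be recovered from them and limits precision in a way that is unknown here. Replicate 3 was joined from 2 sequencing runs of the same library preparation, per the series' design text. All 48 columns were used.

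Here, log2 TE was computed per lysate and limma 3.58.1 (R 4.3.3, eBayes with a mean-variance trend, two-sided, Benjamini-Hochberg adjustment over all genes of a table, calls at an adjusted p under 0.1) was fitted with the replicate number as a block. Replicates are cultures of the same pools in separate weeks. The SEs and p-values rest on the spread between weeks after eBayes pulled each gene's variance towards that of genes of similar mean value. They can thus be narrower than the spread of a gene's own weekly changes. The pairing comes from the labels, and same-numbered lysates of different groups deviated together (mean r of 0.559 in RPFs, 0.183 in total RNA and 0.538 in log2 TE over 60 pairs). The scripts were tested on simulated data. The change on induction of shEIF2B1 used its 8 lysates, and shCTRL-corrected responses used 16. Values are changes ± SE unless named otherwise.

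The 4 genes and all gene lists were chosen with earlier results of these data known. Other genes named are the targeted genes, the 5 highest and 5 lowest log2 TE responses to shEIF2B4, the 3 genes most like each member, genes that overlap or adjoin a member, and called members of the fixed lists. Transcript features and coding stretches come from GENCODE v29, found for 97.3% of genes, of which 30.9% had the same transcript version as in the tables (LRRC49 but not the other 3). Promoters come from RefSeq. Alternatives tried were no block, no trend, leaving out the lowest 25% of genes, fitting all 24 libraries together, centring each library on its median, removal of the GC trend (lowess, span 0.5), a threshold of 0.05, the shCTRL correction on or off and leaving out each replicate.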

Additional observations from a re-analysis of the deposited data

Results flagged for a closer look

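In the uninduced shEIF2B1 line, the log2 TE of LRRC49 in replicate 2 was -1.27, far above the other 3 (-2.07 to -1.95). It was the only one of 72 groups of 4 in which one replicate stood apart by Dixon's ratio, where chance flags about 1 in 20.

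In 5 of 36 comparisons of lines, every week moved one way in one line and the opposite way in the other. The differences were not tested. The log2 TE of LRRC49 fell in both knockdown lines and rose in shCTRL, the changes differing by -0.59 for shEIF2B1 and by -0.96 for shEIF2B4. STOM RPFs fell with shEIF2B4 and rose in the other lines, differing by -0.51 from shCTRL and by -0.45 from shEIF2B1. The log2 TE of STOM fell with shEIF2B4 and rose in shCTRL, differing by -0.77. The differences that involve shEIF2B4 and shCTRL rest on libraries from which the genes were picked.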

How the results depend on the processing

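Of 123 alternative values for the induction of shEIF2B1, 103 were labelled as the same. For refits this meant that direction and side of the threshold were kept. Values with the shCTRL change subtracted had no p, and counted as the same if they moved by less than the SD of the weekly changes. Of 123 for the response to shEIF2B4, 117 stayed within the spread between weeks, a label set by the estimate alone. Fits without the replicate block, without the mean-variance trend, without the lowest genes or with all 24 libraries together leave this estimate unchanged by design. Their values are among the 117 whatever the data, so that count overstates how far the response was tested. Without the replicate block, which pairs lysates of a week, the log2 TE changes on induction of shEIF2B1 were no longer called (DYSF 0.81, limma adjusted p = 0.28; NOS3 1.04, 0.16; LRRC49 -0.35, 0.82), nor was STOM in RPFs (0.29, 0.22). It changed no other call of these genes, and the calls over all genes became 1487 in RPFs and 9 in log2 TE. LRRC49 log2 TE was also not called with all 24 libraries in one fit (-0.35, limma adjusted p = 0.14) or with the GC trend removed (-0.15), which turned its RPF changes to 0.19 with shEIF2B1 and 0.046 with shEIF2B4 and moved its log2 TE response to shEIF2B4 to -0.55. With the shCTRL change subtracted, log2 TE changes with shEIF2B1 moved to -0.59 in LRRC49 and -0.12 in STOM, and STOM RPFs turned to -0.059. Without that subtraction, the log2 TE response of STOM to shEIF2B4 was -0.48. The causes were not tested.

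Leaving out 1 replicate, the log2 TE change on induction of shEIF2B1 ranged from 0.74 to 0.89 in DYSF, from 0.84 to 1.28 in NOS3, from -0.43 to -0.29 in LRRC49 and from 0.13 to 0.27 in STOM. The log2 TE response to shEIF2B4 ranged from 1.14 to 1.52, from 1.01 to 1.33, from -1.11 to -0.89 and from -0.86 to -0.70 in the same order. Calls on induction of shEIF2B1 ranged from 4538 to 5200 in RPFs, from 2585 to 4830 in total RNA and from 830 to 1886 in log2 TE, and log2 TE calls in the response to shEIF2B4 from 0 to 1417, the highest without replicate 1. At an adjusted p under 0.05, 1127 genes were called in log2 TE with shEIF2B1. Log2 TE calls for shEIF2B4 by limma were 0 without the replicate block (364 at an unadjusted p under 0.05), 27 without the trend, 1 without the lowest 25% of genes, 38 with all 24 libraries and 5 with the GC trend removed. With the lowest 25% of genes left out, DYSF and NOS3 could not be tested at all, LRRC49 in total RNA only and STOM in RPFs and total RNA only. How far depth limits each gene is unknown, and the total RNA of DYSF and NOS3 lies at the bottom of the range.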
